A study of Mus musculus with 9 samples.

Results

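The tight junction genes *Cldn1*, *Cldn3*, *Cldn4*, *Cldn6*, *Cldn7*, *Ocln*, *Marveld2*, *Tjp1* and *Tjp3* were followed through early corneal development in the mouse. These 9 genes were chosen by name, as claudins, claudin partners in the membrane and scaffold proteins of the junction, out of 19369 genes listed in the RNA-Seq data, and all 9 were tested in every comparison. The samples came from wild-type C57BL/6 embryos, with 3 samples at each of 3 stages. E10.5 samples held periocular neural crest (pNC), the mesenchyme that surrounds the early eye, after dispase treatment and removal of the ectoderm, lens vesicle and optic cup. E14.5 and E16.5 samples held dissected corneas, in which the surface epithelium was kept. Each sample pooled tissue from several embryos, no sample was treated or genetically altered, and the ages are days of embryonic development.

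Tight junctions seal the space between neighbouring epithelial cells near their apical surface. Claudins are the membrane proteins that form the paired strands of the junction, and which claudins a cell makes sets how tight the seal is and which ions pass it. Occludin and tricellulin (*Ocln* and *Marveld2*), proteins with a MARVEL domain, join the strands between a pair of cells and where several cells meet, and the zonula occludens proteins (*Tjp1* and *Tjp3*) tie the strands to the actin cytoskeleton. In the cornea the superficial layer of the epithelium carries this barrier.

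Expression level is given as FPKM, fragments scaled to the length of the transcript and the total of mapped fragments, so that genes can be compared with each other. Changes between stages are log2 fold changes with their standard error (SE) from edgeR's quasi-likelihood test on expected counts, and calls needed an adjusted p (Benjamini-Hochberg) below 0.05 and a log2 fold change of 1 or more in size. The 9 samples held 8745161 to 9069023 expected counts each. Surface epithelial markers were present but low at E10.5, where the FPKM of 16 of them summed to 79.75 to 115.15, and high in the corneas, with sums of 816.42 to 2405.39 (E14.5) and 5646.99 to 8145.40 (E16.5). Markers of neural crest mesenchyme summed to 331.29 to 386.37 FPKM in pNC, 415.69 to 591.71 at E14.5 and 343.28 to 422.97 at E16.5. Those of retina and retinal pigment epithelium summed to 47.69 to 61.82, 55.28 to 100.08 and 26.70 to 28.84. Red blood cell markers summed to 5033.09 to 7865.85 FPKM in pNC, 1817.39 to 2332.83 at E14.5 and 643.58 to 1349.06 at E16.5. Replicate 1 was the highest of its stage in the epithelial sum in both cornea groups. Stage and the presence of the epithelium cannot be told apart when corneas are set against pNC, and in bulk tissue more cells of a type cannot be told apart from more RNA per cell.

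The 9 genes followed 4 courses over the stages. *Cldn1*, *Cldn3*, *Cldn4*, *Ocln*, *Marveld2* and *Tjp3* rose from E10.5 to E16.5, by 4.3-fold (*Marveld2*) to 38.0-fold (*Cldn1*). *Cldn6* fell by 2.37 on the log2 scale over the same interval. *Tjp1* had its highest level at E14.5, and *Cldn7* was not called in any comparison. Against E10.5, 5 of the 9 genes were called higher at E14.5 and 0 lower, where 13.6% of all 14771 genes tested were called higher and 7.97% lower. At E16.5 against E10.5, 6 were higher and 1 was lower, against 19.4% and 15.4% of all genes. At E16.5 against E14.5, 6 were again higher and 1 lower, against 6.26% and 5.47%. The median log2 fold change of the 9 genes was 1.43, 3.21 and 1.57 in the 3 comparisons, where that of all genes tested was 0.01, 0.00 and -0.02. Each stage enters 2 of the 3 comparisons, so these counts are not independent of each other.

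**Figure D1:**
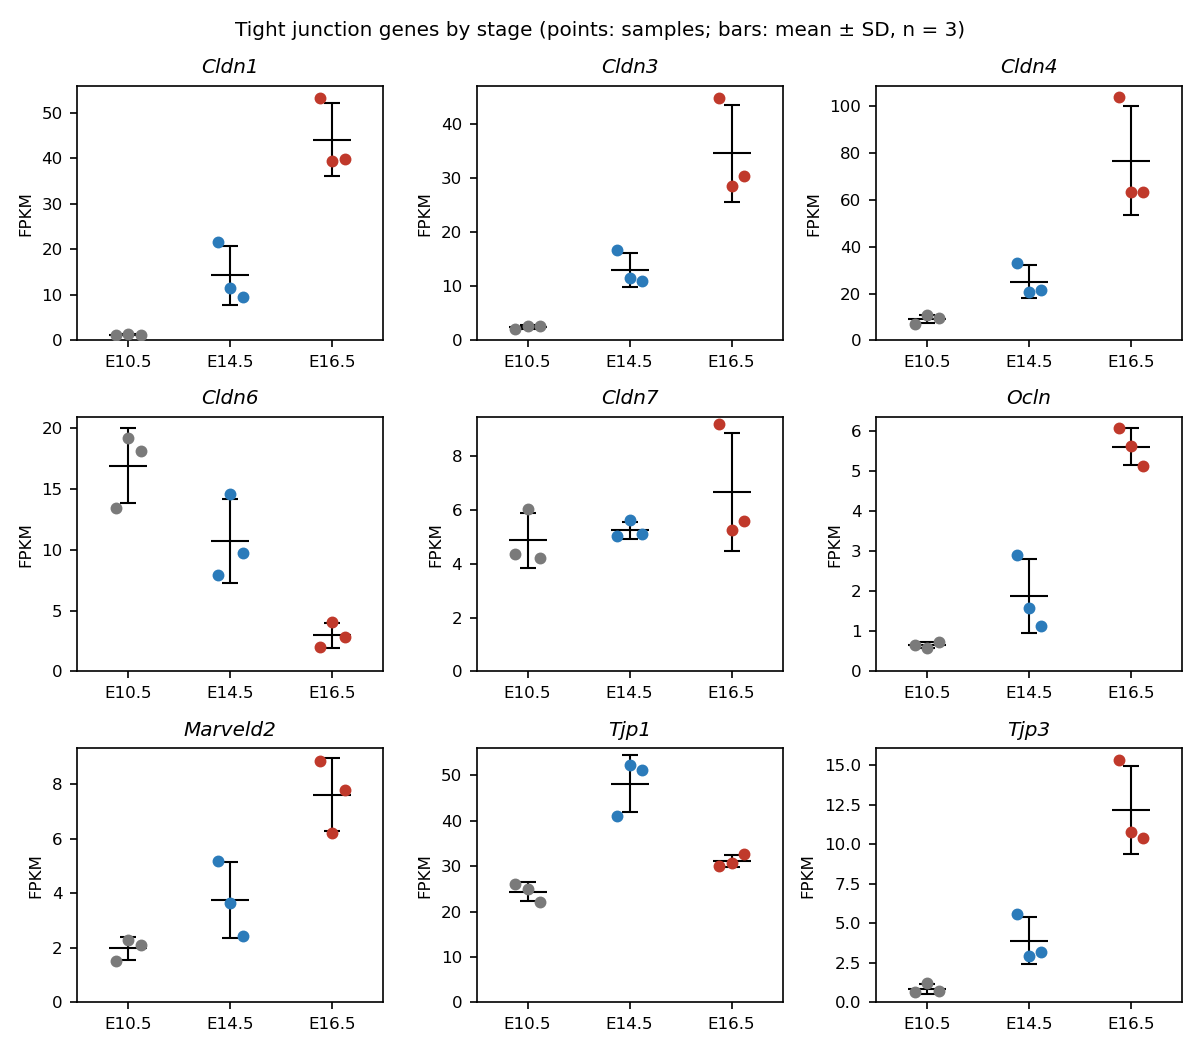
FPKM of each of the 9 tight junction genes (vertical axis, its own scale in each panel, from 0) by stage, with a point for each sample and the mean ± SD of 3 samples. *Cldn6* falls through the stages while the other claudins except *Cldn7* rise, and *Tjp1* is highest at E14.5.

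*Cldn3* and *Cldn4* are neighbours on chromosome 5 and *Cldn6* lies on chromosome 17, so the bases before their starts are shown to set a pair of claudins that rose beside the claudin that fell. In GRCm38, *Cldn3* lies at chr5:134986214-134987476 on the plus strand and *Cldn4* at chr5:134945123-134946934 on the minus strand, 39.3 kb apart with 0 protein-coding genes between them. *Cldn6* lies at chr17:23679348-23682446 on the plus strand, 137 bases from *Cldn9*. The 200 bases directly before the annotated start, from RefSeq (GRCm38.p6), are printed 5′ to 3′ on the strand of the gene. They come from chr5:134986014-134986213 for *Cldn3*, chr5:134946935-134947134 for *Cldn4* and chr17:23679148-23679347 for *Cldn6*. Capitals mark matches to the motifs searched.
Cldn3: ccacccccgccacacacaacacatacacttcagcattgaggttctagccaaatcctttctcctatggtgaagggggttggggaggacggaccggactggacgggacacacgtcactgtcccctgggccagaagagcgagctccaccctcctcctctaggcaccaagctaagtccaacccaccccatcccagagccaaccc
Cldn4: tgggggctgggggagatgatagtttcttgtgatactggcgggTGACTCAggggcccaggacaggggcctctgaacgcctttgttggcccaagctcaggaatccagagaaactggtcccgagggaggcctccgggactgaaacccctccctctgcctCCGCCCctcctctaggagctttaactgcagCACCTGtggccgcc
Cldn6: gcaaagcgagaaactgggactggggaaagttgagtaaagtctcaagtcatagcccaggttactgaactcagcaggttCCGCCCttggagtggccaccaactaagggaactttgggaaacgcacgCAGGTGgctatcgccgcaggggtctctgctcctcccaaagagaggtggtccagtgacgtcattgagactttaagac

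Matches were sought on both strands for the AP-1 motif TGANTCA, the E-box CAGGTG that Snail and Zeb factors bind, the GC box CCGCCC, the AP-2 motif GCCNNNGGC, the Grainyhead-like motif AACNNGTT and the TATA motif TATAAA. *Cldn4* held an AP-1 match at bases -158 to -152 before its start, a GC box at -44 to -39 and an E-box at -14 to -9. *Cldn6* held a GC box at -123 to -118 and an E-box at -76 to -71, and *Cldn3* held no match. A window before the start was at hand for 8 of the 9 genes, all but *Tjp1*. Of these 8, the GC box was found in 5 (*Cldn1*, *Cldn4*, *Cldn6*, *Ocln* and *Marveld2*), against 31.0% of all 32851 promoter windows of this length, the E-box in 3 (*Cldn4*, *Cldn6* and *Tjp3*), against 13.9%, and AP-1 in 1, against 5.48%. The other motifs, found in 11.8% (AP-2), 2.85% (Grainyhead-like) and 9.96% (TATA) of windows, were in 0 of the 8. The E-box thus stood before genes that rose and before the gene that fell. These are matches of letters and do not show binding.

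*Cldn1*, a claudin needed for the barrier of stratified epithelium, had the largest rise of the 9 genes. Its FPKM was 1.15, 1.45 and 1.24 in the E10.5 samples, 21.73, 11.61 and 9.49 at E14.5, and 53.33, 39.35 and 39.78 at E16.5. No sample of one stage overlapped with another stage. Between E10.5 and E14.5 it rose by 3.45 on the log2 scale (SE 0.317), with an edgeR adjusted p of 9.298e-06, and 1.79 (SE 0.248) from E14.5 to E16.5, with an edgeR adjusted p of 0.0008085. The gene lies at chr16:26356645-26371839 on the minus strand.

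*Cldn3* and *Cldn4*, which seal the junction in many simple and stratified epithelia, followed a like course from higher starting levels. *Cldn3* had an FPKM of 2.14, 2.74 and 2.64 in the pNC samples, then 16.64, 11.48 and 10.96 in E14.5 corneas, and 44.88, 28.50 and 30.45 in E16.5 corneas. *Cldn4* had 7.15, 10.90 and 9.40, then 33.01, 20.60 and 21.48, then 103.69, 63.25 and 63.20. For both genes the 3 stages did not overlap, and replicate 1 was the highest sample in each of the cornea groups. From E10.5 to E14.5 *Cldn3* rose by 2.36 on the log2 scale (SE 0.247, edgeR adjusted p = 2.344e-05) and *Cldn4* by 1.43 (SE 0.250, edgeR adjusted p = 0.0006707). From E14.5 to E16.5 the log2 fold change was 1.57 (SE 0.199, edgeR adjusted p = 0.0006293) for *Cldn3* and 1.78 (SE 0.232, edgeR adjusted p = 0.0006799) for *Cldn4*. At E16.5 *Cldn4* was the most abundant of the 9 genes, with 76.7 ± 23.4 FPKM (SD, n = 3). *Cldn3* shares 44 bases with *Wbscr25*, which was listed at 0 to 0.16 FPKM, and whether the counting used strand is not given in the sources used here.

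*Cldn6*, a claudin of embryonic epithelia that is lost from most adult tissues, was the only one of the 9 genes called lower. It had an FPKM of 13.41, 19.20 and 18.16 in the pNC samples, then 7.93, 14.60 and 9.72 in E14.5 corneas, and 1.97, 4.05 and 2.84 in E16.5 corneas. The E10.5 and E14.5 samples overlapped, and those at E16.5 lay below all others. The log2 fold change to E14.5 was -0.67 (SE 0.257, edgeR adjusted p = 0.04502), short of the fold minimum. From E14.5 to E16.5 it was -1.69 (SE 0.295, edgeR adjusted p = 0.002014), and from E10.5 to E16.5 it was -2.37 (SE 0.291, edgeR adjusted p = 2.946e-05). Within both cornea stages, replicate 1 had the highest *Cldn1*, *Cldn3* and *Cldn4* and the lowest *Cldn6*. The neighbouring *Cldn9* stayed under 1 FPKM in every sample.

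*Cldn7* (chr11:69964779-69967886, plus strand), a claudin found along the sides of epithelial cells as well as at the junction, was near level. Its FPKM was 4.38, 6.04 and 4.20 in the pNC samples, then 5.02, 5.61 and 5.09 in E14.5 corneas, and 9.19, 5.24 and 5.58 in E16.5 corneas. The stages overlapped in all 3 comparisons, and 1 sample, E16.5 replicate 1, stood above the rest. Between E10.5 and E14.5 its log2 fold change was 0.07, with an approximate 95% interval of -0.42 to 0.57 and an edgeR adjusted p of 0.8183. From E10.5 to E16.5 it was 0.57 (interval 0.09 to 1.05, edgeR adjusted p = 0.05892), and from E14.5 to E16.5 it was 0.50 (interval 0.01 to 0.98, edgeR adjusted p = 0.1424), falling to 0.18 without E16.5 replicate 1. The intervals were taken from the SE with a normal distribution and are too narrow for so few samples. The last leaves out 0, where the edgeR p before adjustment was 0.069. Changes of about the fold minimum at E16.5 therefore remain possible.

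The genes of the MARVEL proteins rose from low levels. *Ocln*, which encodes occludin, had an FPKM of 0.67, 0.58 and 0.74 in the pNC samples, then 2.91, 1.59 and 1.12 in E14.5 corneas, and 6.06, 5.61 and 5.13 in E16.5 corneas. The stages did not overlap. *Ocln* rose by 1.48 on the log2 scale to E14.5 (SE 0.328, edgeR adjusted p = 0.002983) and by 1.74 from E14.5 to E16.5 (SE 0.272, edgeR adjusted p = 0.001273). The E10.5 samples held only 17 to 21 expected counts of *Ocln*. The first of these rises was lost with limma on log2(FPKM + 1), at 0.74, and with NOISeq, which sets a difference against those between replicates, at 1.5, and the second was lost with NOISeq, at 1.58.

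*Marveld2*, which encodes tricellulin, had an FPKM of 1.52, 2.30 and 2.12 in the pNC samples, then 5.20, 3.64 and 2.44 in E14.5 corneas, and 8.87, 6.21 and 7.80 in E16.5 corneas. The samples of the 3 stages did not overlap, though E14.5 replicate 3 was close to the E10.5 samples. From E10.5 to E16.5 it rose by 2.11 on the log2 scale (SE 0.263, edgeR adjusted p = 3.358e-05). To E14.5 the log2 fold change was 0.95 (SE 0.270, edgeR adjusted p = 0.01204), just short of the fold minimum, and it passed at 1.08 without E10.5 replicate 2, at 1.01 without E14.5 replicate 2 and at 1.15 without E14.5 replicate 3. From E14.5 to E16.5 it was 1.16 (SE 0.247, edgeR adjusted p = 0.005261), a call lost without E14.5 replicate 3, at 0.96. That call was also lost with libraries scaled to their totals, at 0.99, with limma on log2(FPKM + 1), at 0.89, and with NOISeq, at 1.02, and it was kept with limma on log2(FPKM + 0.1), at 1.05. *Ocln* (chr13:100496504-100552718) and *Marveld2* (chr13:100595957-100616971) lie 43.2 kb apart on the minus strand, with 0 protein-coding genes between them.

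*Tjp1*, which encodes ZO-1, a scaffold also present at the contacts of cells that lack tight junctions, differed from the rest in course and level. Its FPKM was 26.14, 24.89 and 22.02 in the pNC samples, then 40.99, 52.30 and 51.24 in E14.5 corneas, and 30.13, 30.63 and 32.62 in E16.5 corneas. No samples of different stages overlapped, and the spread within each stage was small. The log2 fold change was 0.97 to E14.5 (SE 0.111, edgeR adjusted p = 4.039e-05), and -0.47 from E14.5 to E16.5 (SE 0.110, edgeR adjusted p = 0.008171). From E10.5 to E16.5 it was 0.51 (SE 0.110, edgeR adjusted p = 0.00177). All 3 adjusted p-values were under 0.05 and none of the changes reached the fold minimum, except the first when E10.5 replicate 1 (1.03) or E14.5 replicate 1 (1.08) was left out. *Tjp1* lies at chr7:65296165-65527850 on the minus strand.

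*Tjp3*, which encodes ZO-3, the zonula occludens protein most restricted to epithelia, followed the claudins that rose. It had an FPKM of 0.66, 1.23 and 0.71 in the pNC samples, then 5.61, 2.94 and 3.16 in E14.5 corneas, and 15.35, 10.76 and 10.38 in E16.5 corneas, with no overlap between stages. It rose by 2.15 on the log2 scale to E14.5 (SE 0.327, edgeR adjusted p = 0.0002778), a call lost with NOISeq at a log2 ratio of 2.17. From E14.5 to E16.5 it rose by 1.80 (SE 0.263, edgeR adjusted p = 0.001017). The end of *Tjp3* (chr10:81273188-81291581) shares 60 bases with *Apba3* on the other strand, whose FPKM lay between 13.19 and 20.26 in all 9 samples. Reads from the shared bases cannot be told apart where strand was not used.

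**Figure D2:**
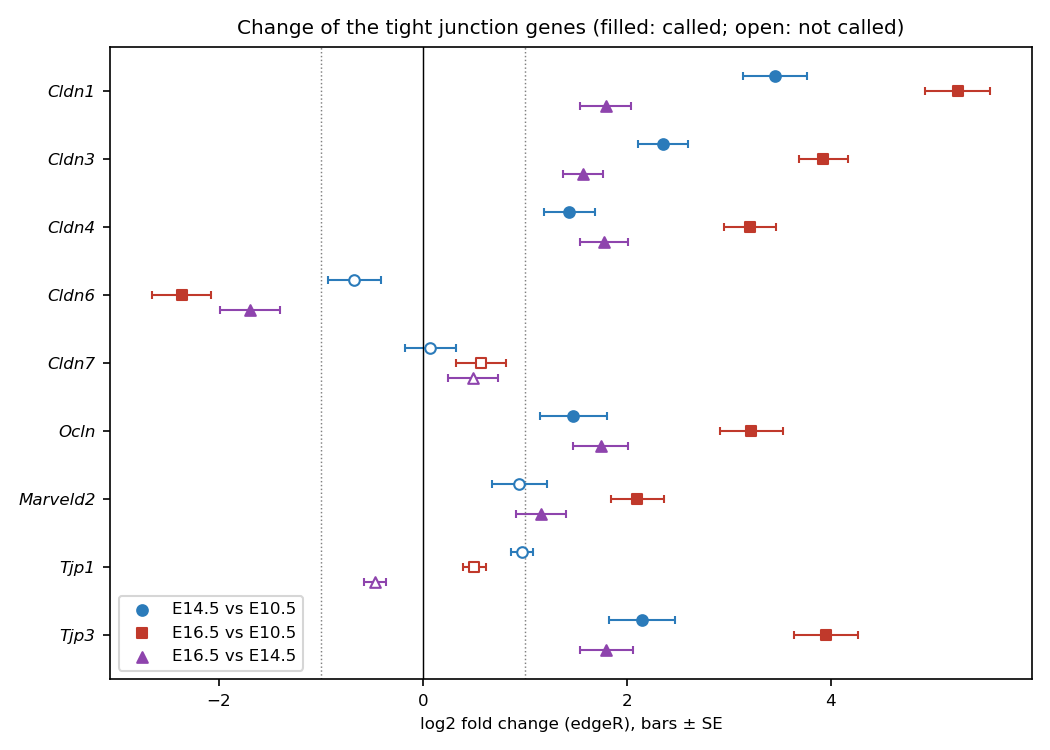
Log2 fold change (horizontal axis, edgeR, bars ± SE) of each gene in 3 comparisons, with filled symbols for genes that passed both the adjusted p and the fold minimum (dotted lines). *Cldn1* reaches 5.25 at E16.5 against E10.5, and *Tjp1* has its 2 values against E10.5 above 0 and that of E16.5 against E14.5 below 0.

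The order of the 9 genes by level changed between stages. At E10.5 *Tjp1* was highest, with 24.4 ± 2.11 FPKM (SD, n = 3), followed by *Cldn6*, *Cldn4* and *Cldn7*, each above the next in every sample. *Cldn3* and *Marveld2* followed and overlapped with each other, and *Cldn1*, *Tjp3* and *Ocln* came last, each overlapping with its neighbour in the order. At E14.5 *Tjp1*, at 48.2 ± 6.25 FPKM, was above *Cldn4*, and *Cldn4*, *Cldn1*, *Cldn3* and *Cldn6* overlapped from one to the next. *Cldn7*, *Tjp3*, *Marveld2* and *Ocln* were lower and likewise overlapped. At E16.5 *Cldn4* was first, above *Cldn1*, *Cldn3* and *Tjp1*, which overlapped from one to the next, then came *Tjp3*, then *Marveld2*, *Cldn7* and *Ocln*, again overlapping, and *Cldn6* was last, below every other gene in all samples.

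The makeup of the claudin pool was set out from the summed FPKM of 23 claudin genes listed in at least 1 sample. The sum was 106 ± 9.23 FPKM in pNC, 116 ± 17.1 in the E14.5 corneas and 199.7 ± 43.6 in the E16.5 corneas (SD, n = 3). *Cldn1*, *Cldn3*, *Cldn4*, *Cldn6* and *Cldn7* together made up 32.8 ± 4.66% of it in pNC, then 58.7 ± 3.50% (E14.5) and 82.3 ± 2.57% (E16.5). The samples of the stages did not overlap, and each of these differences had a two-sided exact permutation p of 0.1, the smallest that 3 samples against 3 can give.

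Within the pool, *Cldn6* held a larger share than *Cldn4* in pNC and a smaller one in the corneas. From the earliest to the latest stage *Cldn6* held 16 ± 2.73%, 9.54 ± 3.58% and 1.58 ± 0.77%, while *Cldn4* held 8.64 ± 1.45%, 21.4 ± 3.07% and 38.0 ± 3.03% (SD, n = 3). *Cldn1* went from 1.21% to 12% and 22.2%, and *Cldn3* from 2.38% to 11.2% and 17.2%. As shares of expected counts, which do not divide out transcript length, *Cldn1* had 2.18%, 19.7% and 35.1%, and *Cldn3* had 1.62%, 7.0% and 10.3%. *Cldn4* had 8.63%, 19.6% and 33.3%, so that the mean share of *Cldn1* was then above that of *Cldn4* at E16.5. In E16.5 replicate 1, however, *Cldn4* was higher, with 1649 expected counts against 1528 for *Cldn1*. The share of *Cldn7* was 4.58%, 4.60% and 3.29%. The exact permutation p was 0.1 for each of these genes and pairs of stages, apart from *Cldn6* (p = 0.2) and *Cldn7* (p = 1.0) at E14.5 against E10.5. At E10.5 the largest shares belonged to *Cldn5*, at 26.1 ± 6.14%, a claudin of vascular endothelium, and *Cldn11*, at 19.3 ± 2.0%. These fell to 0.766% and 0.350% at E16.5. The FPKM of 7 vascular endothelial markers summed to 144.22 to 217.95 in pNC and 27.75 to 42.60 in E16.5 corneas, with 6 of the 7 called lower, and their part in the change of the shares was not tested.

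**Figure D3:**
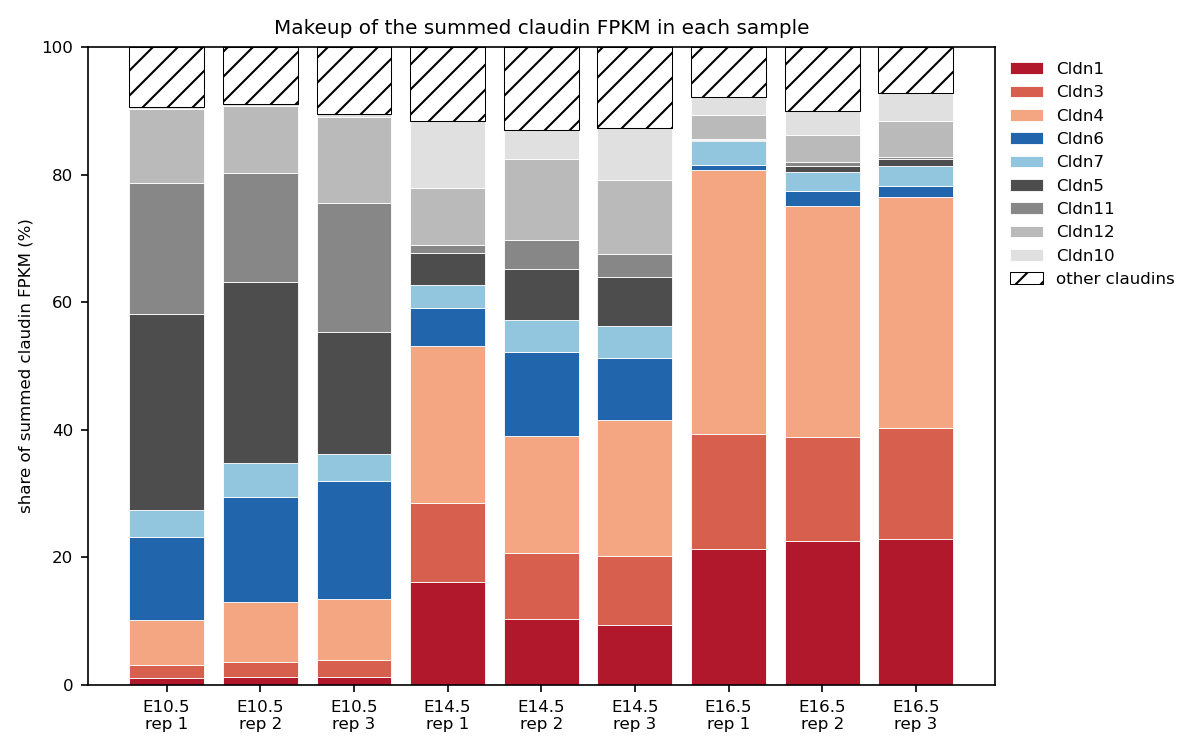
Share of the summed FPKM of 23 claudins (vertical axis, percent) in each of the 9 samples, stacked by gene, with the claudins described here in red and blue and others in grey or hatched. *Cldn5* and *Cldn11* take a large part of the bars at E10.5, and *Cldn4*, *Cldn1* and *Cldn3* take most of the bars at E16.5.

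Most surface epithelial markers were higher in the corneas than in pNC. Of 16 surface epithelial markers, 15 were called higher at E14.5 and 15 at E16.5 against E10.5, with a median log2 fold change of 2.92 and 4.25, and 8 were higher at E16.5 against E14.5. Between the cornea stages *Epcam* (log2 fold change -0.43) and *Cdh3* (-0.20) were lower with no overlap of samples, short of the fold minimum. Only *Krt18* was not called at E14.5 against E10.5. Markers of other corneal layers were higher too, with 5 of 5 stromal and 4 of 4 corneal endothelial markers called higher in each cornea stage against E10.5. The stromal markers summed to 103.94 to 159.90 FPKM in pNC, 2163.53 to 5628.22 in E14.5 and 8741.56 to 10621.10 in E16.5 corneas, and the endothelial markers to 10.71 to 18.22, 265.99 to 323.38 and 199.66 to 238.21. The part of these layers in the changes of the junction genes was not tested. E14.5 replicate 1 stood apart, with a marker sum of 2405.39 FPKM against 816.42 and 941.01 in the other two samples. Keratins weighed heavily in this sum, with *Krt5* alone at 342.86 to 1042.15 FPKM over the E14.5 samples. The geometric mean of *Epcam*, *Cdh1*, *Esrp1* and *Perp* in replicate 1 was only 1.54 times the mean of the other samples. Within it, *Epcam* was at 41.39 against 37.99 and 36.47 FPKM, and *Perp* at 136.86 against 60.49 and 59.63. In E14.5 replicate 1 *Ocln* was 2.15 times and *Cldn1* 2.06 times the mean of the other two samples, *Tjp3* 1.84, *Marveld2* 1.71, *Cldn4* 1.57 and *Cldn3* 1.48 times. *Cldn7* was at 0.938 times, *Tjp1* at 0.792 times and *Cldn6* at 0.652 times. The ratios above 1 thus belonged to the genes that rose with stage, and the part of epithelial content in those rises was not tested. Without this sample, 6 of the 9 genes were called higher at E14.5 against E10.5, and 6 higher and 1 lower at E16.5 against E14.5. The gene gained at E14.5 was *Tjp1*, at 1.08. Over all genes the calls without this sample were 1864 higher at E14.5 against E10.5, where all samples gave 2014. At E16.5 against E14.5 they were 1307 higher and 1056 lower, where all samples gave 924 and 808.

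To set the members against the epithelium of the same sample, each FPKM was divided by the geometric mean of *Epcam*, *Cdh1*, *Esrp1* and *Perp*, which was 57.6, 37.3 and 37.4 FPKM in the E14.5 corneas and 70.3, 55.6 and 55.8 in the E16.5 corneas. Per epithelial reference, *Cldn1* was 1.23 higher at E16.5 than at E14.5 on the log2 scale, *Ocln* 1.21, *Tjp3* 1.20, *Cldn4* 1.13, *Cldn3* 0.93 and *Marveld2* 0.59. *Tjp1* changed by -1.10 and *Cldn6* by -2.36. For these 8 genes the samples of the 2 stages did not overlap (exact permutation p = 0.1 for each, the smallest possible). *Cldn7* differed by -0.18, and its samples overlapped (exact permutation p = 0.6). In pNC, where the reference was 5.94 to 8.50 FPKM, the mean log2 ratio of every gene but *Cldn1* lay above that at E14.5. It was -3.49, -4.64 and -3.43 for *Ocln* from the earliest to the latest stage, 0.28, -0.82 and 0.31 for *Cldn4*, and -1.93, -3.59 and -3.0 for *Marveld2*. For *Cldn1* the ratio was -2.54, -1.69 and -0.46. In pNC and at E14.5 the ratio was -1.57 and -1.75 for *Cldn3* and -3.16 and -3.53 for *Tjp3*. For *Tjp1* it was 1.71 and 0.15, for *Cldn6* 1.17 and -2.05, and for *Cldn7* -0.63 and -3.04.

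These differences turned on the epithelial gene used as reference. Between E14.5 and E16.5 *Epcam* went from 41.39, 37.99 and 36.47 FPKM to 27.86, 25.52 and 23.49, whereas *Perp*, a desmosomal protein of stratified epithelia, went from 136.86, 60.49 and 59.63 to 277.89, 190.45 and 192.48. Over the 9 genes the median log2 difference was 0.93 with all 4 references, 2.0 with *Epcam* alone, 0.80 with *Cdh1* alone, 0.95 with *Esrp1* alone and -0.05 with *Perp* alone. *Cldn1*, *Cldn4*, *Ocln* and *Tjp3* were above 0 and *Cldn6* was below 0 with each of the 4 references. With *Perp* alone, however, *Cldn1* was at only 0.25, *Cldn4* at 0.15, *Ocln* at 0.24 and *Tjp3* at 0.22. *Tjp1* was also below 0 with each, but at -0.03 with *Epcam*. The sign of *Cldn3*, *Marveld2* and *Cldn7* depended on the reference.

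**Figure D4:**
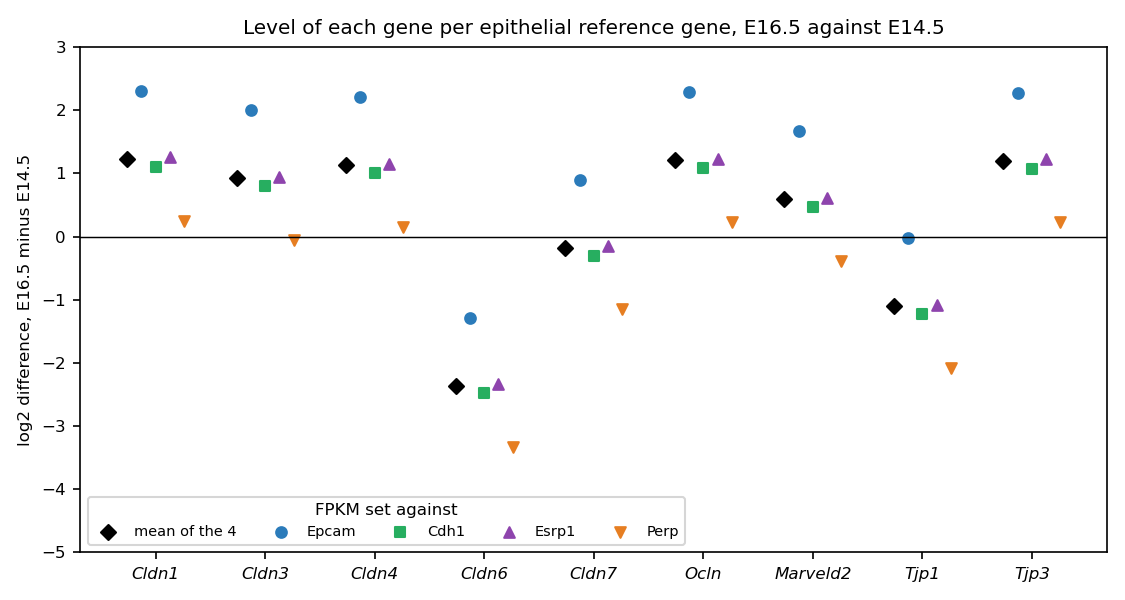
Log2 difference of each gene between E16.5 and E14.5 corneas (vertical axis) after its FPKM was divided by an epithelial reference, the geometric mean of 4 genes (black) or each gene alone (colours). *Cldn6* lies below 0 with every reference, and most points for *Perp* lie near or below 0.

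Other junction genes were taken from a list of 58, of which 52 were listed in at least 1 sample and 40 were tested. Of these 40, 12 were called higher and 5 lower at E14.5 against E10.5, 14 and 7 at E16.5 against E10.5, and 5 and 3 at E16.5 against E14.5. As shares of the 40 these were 30% and 12.5%, 35% and 17.5%, and 12.5% and 7.5%, where all genes gave 13.6% and 7.97%, 19.4% and 15.4%, and 6.26% and 5.47%. The 5 genes higher at E16.5 against E14.5 were 0 with NOISeq, and 3 when E10.5 replicate 3, E14.5 replicate 2 or 3, or E16.5 replicate 1 or 2 was left out. The medians were 0.35, 0.34 and 0.03 on the log2 scale, beside 1.43, 3.21 and 1.57 for the 9 genes above. Among 8 other claudins tested, *Cldn8*, *Cldn10* and *Cldn23* rose and *Cldn5* and *Cldn11* fell against E10.5 at both cornea stages. *Cldn10*, a claudin that forms ion pores, had an FPKM of 0.24 to 0.48 in pNC, 5.08 to 14.09 in E14.5 and 6.51 to 7.44 in E16.5 corneas, and its log2 fold changes against pNC were 4.60 and 4.40. *Cldn27*, listed in RefSeq as *Tmem235*, was called higher from 0 to 0.06 FPKM in pNC to 0.56 to 1.37 in E16.5 corneas, a fold with no fixed size. *Cldn12* was at 7.40 to 14.28 FPKM in all 9 samples and was not called.

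Among the other membrane proteins, 4 of 10 were called higher and 2 lower at E14.5, and 6 higher and 3 lower at E16.5, against E10.5. As shares these were 40% and 20%, and 60% and 30%, where all genes gave 13.6% and 7.97%, and 19.4% and 15.4%. *F11r*, the junctional adhesion molecule JAM-A, had an FPKM of 9.99 to 12.04, 19.26 to 27.45 and 31.80 to 40.55 at the 3 stages. *Lsr* and *Ildr1*, angulins that recruit tricellulin to tricellular contacts, had log2 fold changes of 1.56 and 4.90 from E10.5 to E16.5, where *Marveld2* had 2.11. The related *Ildr2* fell by 4.36 on the log2 scale from 1.17 to 2.21 FPKM at E10.5. *Esam*, an adhesion molecule of endothelium, fell by 4.03 over the same stages in which the vascular markers were lower, and their part in it was not tested.

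Of the plaque and polarity proteins, 4 of 21 were called higher and 1 lower in each cornea stage against E10.5, or 19.0% and 4.76%. All genes gave 13.6% and 7.97% at E14.5, and 19.4% and 15.4% at E16.5. At E16.5 the share called higher was thus near that of all genes. *Cgn*, cingulin, which binds the zonula occludens proteins, had an FPKM of 2.55 to 3.61, 11.51 to 20.08 and 18.12 to 20.34. Paracingulin (*Cgnl1*) was called at E14.5 only, at 1.38, with 17.97 to 25.43 FPKM then and 12.52 to 17.34 in E16.5 corneas. *Prkci*, the atypical protein kinase of the polarity complex, had log2 fold changes of 1.05 and 1.11 against E10.5.

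**Figure D5:**
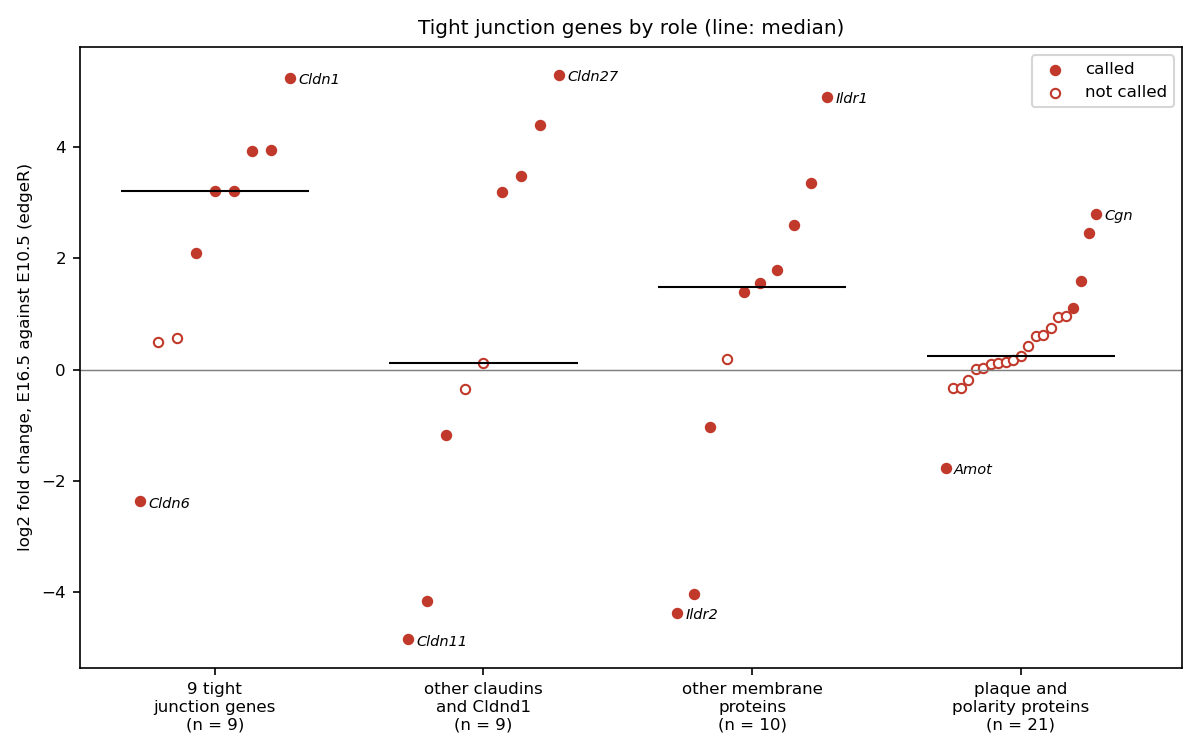
Log2 fold change at E16.5 against E10.5 (vertical axis, edgeR) of the 9 genes described here and of other tested junction genes by role, with a point for each gene, filled where called, and a line at the median. The 9 genes have a median of 3.21, and the plaque and polarity proteins lie mostly near 0.

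The genes most like each member in level over the 9 samples were found by Pearson's r of log2(FPKM + 1) among 10866 genes, as a description in which the points share the 3 stages. *Cldn1* was most like *Lama3*, *Hlf* and *Crybg2* (r from 0.9981 to 0.9984), and *Cldn3* like *Mapk13*, *Wdr13* and *Cdc42bpg*. *Cldn4* and *Tjp3* were among the 3 nearest of each other (r = 0.9966). For *Ocln* the nearest were *S1pr5*, *Pkp1* and *Lipm*, for *Marveld2* they were *Tm2d3*, *Smarcd2* and *Mall*, and for *Tjp1* they were *Otud7b*, *Tcf20* and *Pcdh7*. *Cldn6* had *Zfp934* (r = 0.9907), *Prps1l3* and *Hpf1*, and *Cldn7*, whose level varied little, had *Brap* (r = 0.911), *Zswim6* and *Fbxo42*. Among the members themselves, *Cldn6* had r from -0.899 to -0.948 with the 6 genes that rose, and *Tjp1* had r from 0.145 to 0.423 with them.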

How the data were processed

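RNA-Seq was analyzed in 9 samples, grouped by the stage in their labels. The authors mapped reads with Bowtie 2 and HISAT (GRCm38) and quantified genes with RSEM, and the deposited expected counts are not normalized. The deposited FPKM values were scaled by the authors to transcript length and library total. Genes missing from a sample were taken as 0. Rounded expected counts were filtered with filterByExpr, scaled with TMM and fitted with edgeR 4.0.16 (R 4.3.3), stage as the factor, with Benjamini-Hochberg adjustment over 14771 genes and steps tested on simulated data. Alternatives were DESeq2 1.42.0, limma 3.58.1 on log2(FPKM + 1) or log2(FPKM + 0.1), NOISeq (probability of at least 0.8), other scalings and filters, a replicate block, and leaving out each sample. Counting error is small at these depths except for rare transcripts. The edgeR p-values rest on the spread between pooled samples of the same stage, estimated over all 9 samples together. Symbols and positions were matched to RefSeq (GRCm38.p6). The genes described, the lists and the tests were chosen with earlier results of these data known. Named other genes had the 3 largest rises or falls among called genes with a mean of at least 1 FPKM, or a mean of at least 5 FPKM. *Cldn25* and *Symk* were not analysed here. Python 3.11.15 with scipy 1.17.1 gave the exact permutation tests.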

Additional observations from a re-analysis of the deposited data

How the results depend on the processing

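The directions of *Cldn1*, *Cldn3*, *Cldn4*, *Cldn6*, *Ocln*, *Marveld2*, *Tjp1* and *Tjp3* held in each comparison under every alternative, and *Cldn7* reversed, from 0.07 to -0.029 at E14.5 against E10.5, without E10.5 replicate 3 (-0.029 to 0.25 when a sample was left out). With NOISeq 3 of the 9 genes, not 5, were higher at E14.5 against E10.5. With no fold minimum 1 gene was lower at E14.5 against E10.5 (*Cldn6*) and 2 at E16.5 against E14.5 (*Cldn6* and *Tjp1*). Leaving out 1 sample gave 5 to 6 genes higher at E14.5 and 6 at E16.5 against E10.5, and 5 to 6 at E16.5 against E14.5. Over all genes the higher calls were then 1864 to 2135, 2829 to 2934 and 690 to 1307. Of the other junction genes, 7 were higher at E14.5 against E10.5 with NOISeq and with limma on log2(FPKM + 1), 11 with limma on log2(FPKM + 0.1), and 9 were lower with no fold minimum. At E16.5 against E14.5, 5 were higher, but 3 with library totals, with limma on log2(FPKM + 1) or with the 2 stages alone, 5 with limma on log2(FPKM + 0.1), 3 to 5 when a sample was left out (3 without E10.5 replicate 3, E14.5 replicate 2 or 3, or E16.5 replicate 1 or 2), 0 with NOISeq and 12 with no fold minimum, where 6 were lower. The median per epithelial reference was 2.0 with *Epcam* alone and -0.050 with *Perp* alone.

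Over all genes, higher and lower calls at E14.5 against E10.5 numbered 2014 and 1177, and 941 and 535 with NOISeq, 1286 and 736 with limma on log2(FPKM + 1), 1293 and 752 with that fit without a filter, and 4273 and 4055 with no fold minimum. At E16.5 against E10.5, the 2862 higher calls were 1694, 1856, 1882 and 5197 under these alternatives, and the 2282 lower calls were 5119 with no fold minimum. At E16.5 against E14.5, the 924 higher calls were 381, 501, 506 and 2579, and the 808 lower calls were 401, 491, 504 and 2585. With limma on log2(FPKM + 0.1) higher and lower calls in the 3 comparisons were 1947 and 1144, 2482 and 2634, and 749 and 993. The cause of these differences was not tested, beyond the fold minimum itself.

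No pairing of samples by replicate number is described. Deviations from the stage means correlated by -0.032 on average over 9 pairs of the same number and by 0.017 over 18 pairs of different numbers. Same-number pairs of E14.5 and E16.5 corneas had 0.205, 0.073 and 0.086, and those of pNC with corneas had -0.247 to -0.0715. These averages cannot exclude a pairing, since deviations within a stage add up to 0 and the stages differ. With the replicate block, 5, 6 and 6 of the 9 genes were higher and 0, 1 and 1 lower in the 3 comparisons, and all calls of these genes were as without it. The block gave 1985 higher and 1182 lower calls at E14.5 against E10.5 over all genes. It gave 2855 and 2285 at E16.5 against E10.5, and 937 and 785 at E16.5 against E14.5. Low counts limit *Ocln*, *Tjp3* and *Cldn3* at E10.5.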
